A study of Homo sapiens with 6 samples.

Results

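The genes described here are 3 of the receptors of the epidermal growth factor (EGF) family (EGFR, ERBB2 and ERBB3), 5 of their ligands (AREG, EREG, HBEGF, TGFA and BTC) and 2 inhibitors of the receptors (ERRFI1 and LRIG1). They were chosen by symbol, and all 10 were found among the 23228 genes of the count tables. The libraries, 3 Control and 3 ADP-CM, were made from poly(A) RNA of RL95-2, a human cell line from an endometrial carcinoma. Control cells stood in serum-free RPMI mixed with DMEM, and ADP-CM cells in serum-free RPMI mixed with ADP-CM. ADP-CM is the DMEM in which mature adipocytes from human visceral fat had been kept. That fat came from female patients with a high BMI, and no group received medium from lean donors. The mix was in equal parts and lasted 24 h in both groups, after growth in RPMI with 10% FBS. The comparison asks what the adipocyte medium changes in the RNA of these cells. It does not show which component of the medium acts, and the number of fat donors behind the medium is not given in the sources used here. The labels do not say whether the 3 libraries of a group came from separate cultures, so p-values measure the spread between these libraries, which may be technical.

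Receptors of the EGF family are tyrosine kinases of the cell surface that pair up when a ligand binds, and then feed the RAS-ERK and PI3K-AKT cascades. EGFR binds EGF-like ligands directly, ERBB2 has no known ligand of its own and serves as a partner, and ERBB3 binds neuregulins but has little kinase activity. The ligands are made as membrane proteins and are cut free by ADAM proteases, above all ADAM17. In epithelia, the endometrium among them, the system drives growth and repair and is held back by inhibitors that ERK signaling itself induces.

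EGFR was the only one of the 10 genes that passed the test, and its rise was small. It was higher in ADP-CM by 12.99% (95% interval 9.54 to 16.5), a log2 fold change of 0.18. ERBB2, ERBB3, TGFA, ERRFI1 and LRIG1 had enough reads for narrow intervals and did not pass. Their intervals all lay between -0.18 and 0.14 on the log2 scale. The count of LRIG1 is uncertain, since 37.9% of its exonic bases lie opposite another gene and the strand setting is not given. The other ligands on the list gave few reads, and AREG could hardly be measured at all, because the genome build used for alignment holds a second, nearly identical AREG locus. Among the family genes not on this list, epigen (EPGN) and neuregulin 1 (NRG1) rose. Of the 10 genes, 8 passed edgeR's filter on low counts and were tested among 12663 genes, and 2, EREG and BTC, did not. At an adjusted p under 0.01, 1 of the 8 was higher, where 13.5% of all tested genes were higher, and 0 were lower, where 13.0% of all genes were lower. At an unadjusted p under 0.05 the edgeR quasi-likelihood test found 2 of the 8 higher and 0 lower. DESeq2, which fitted all 10, found 1 higher and 0 lower. The share of all genes at that unadjusted limit was not counted, so nothing is read from these numbers. None of the 8 passed a fold change of 1.5 together with that adjusted p, against 2.27% of all genes. The libraries of the groups did not overlap for 2 of the 8, EGFR and ERBB3, where 45.5% of all tested genes showed no overlap. The median log2 fold change of the 8 was 0.05, against -0.0023 over all tested genes.

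**Figure D1:**
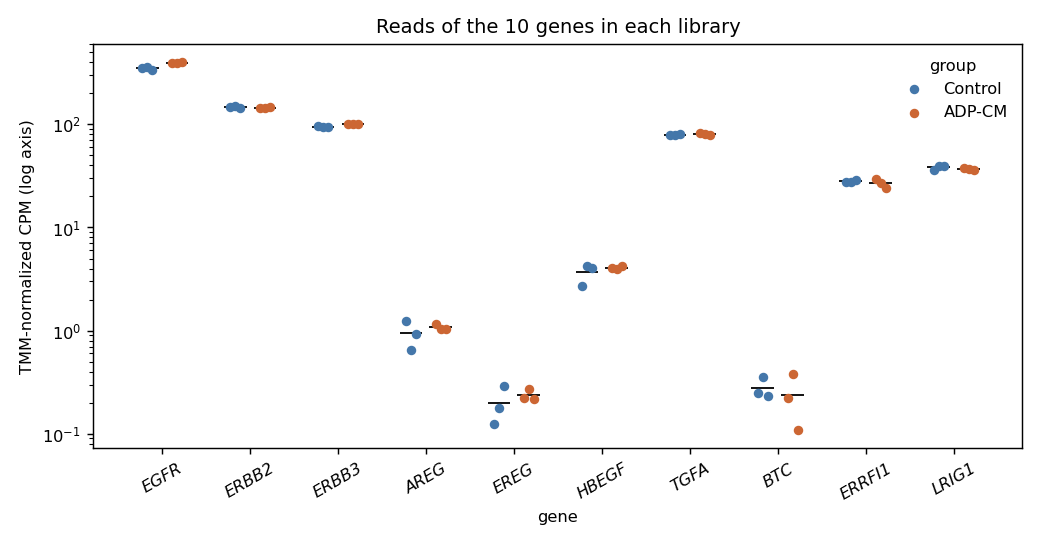
TMM-normalized CPM (log axis) of the 10 genes in each of the 3 Control and 3 ADP-CM libraries, with points for libraries and bars for group means. EGFR lies between 338 and 357 in Control and between 391 and 399 in ADP-CM, while the points of most other genes overlap between the groups.

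Among the receptors, EGFR (chromosome 7, 55086710 to 55279321 on GRCh37, plus strand) had the most reads. The 3 Control libraries held 5700, 6032 and 5787 of them, and the 3 ADP-CM libraries held 7098, 7177 and 7346. Scaled to CPM by TMM, a method that corrects library size for composition, these were 351, 357 and 338 in Control and 392, 391 and 399 in ADP-CM. Every ADP-CM library was above every Control library. The group means were 349 ± 9.62 and 394 ± 4.44 CPM (SD, n = 3 each), the log2 fold change had a standard error of 0.022, and the adjusted p was 1.71e-09 in the edgeR quasi-likelihood test. In bulk RNA, more cells that express a gene and more RNA per cell cannot be told apart. EGFR kept its direction and its call under the 12 other normalizations, filters, tests and left-out libraries that were tried, with log2 fold changes of 0.15 to 0.19. The 3 genes with at least 10 CPM whose profiles over the 6 libraries lay closest to that of EGFR were CARM1, RUNX1 and HK2. Their centred log2 CPM differed from that of EGFR by a root mean square of 0.012 to 0.013, where EGFR itself spanned 0.24. They were picked as the closest of 9569 genes over only 6 libraries, so the small distance does not show a relation to EGFR.

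ERBB2 (chromosome 17, 37844167 to 37886679, plus strand), the partner receptor, had 2376, 2543 and 2470 reads in Control and 2612, 2645 and 2689 in ADP-CM. Once scaled, these were 146.5, 150.6 and 144.4 CPM in Control and 144.3, 144.2 and 146.2 CPM in ADP-CM. The groups overlapped, and the log2 fold change was -0.02 with an interval of -0.08 to 0.04 (adjusted p 0.586, edgeR quasi-likelihood test). In percent, the interval for ERBB2 ran from -5.43% to 2.52%. ERBB2 shares 6.9% of its exonic bases with genes on the opposite strand.

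ERBB3 (chromosome 12, 56470583 to 56497289, plus strand), the neuregulin receptor, was at 95.7, 95.2 and 95.03 CPM in Control and 100.7, 99.95 and 99.8 CPM in ADP-CM. All 3 ADP-CM libraries were above the Control libraries, by about 5.07% (interval 0.368 to 9.99). Its log2 fold change was 0.07 (SE 0.033) and did not pass the threshold (edgeR quasi-likelihood test, adjusted p 0.0834, range over the alternatives 0.0691 to 0.2465). The difference between the EGFR and ERBB3 changes was not tested.

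Among the 5 listed ligands, TGFA (chromosome 2, 70674416 to 70781325, minus strand), transforming growth factor alpha, gave by far the most reads. It stood at 78.2, 79.5 and 80.3 CPM in Control and 83.2, 80.7 and 78.7 CPM in ADP-CM, with ADP-CM replicate 3 below 2 of the 3 Control libraries. The log2 fold change was 0.03, with an interval of -0.05 to 0.10 (adjusted p 0.604, edgeR quasi-likelihood test).

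HBEGF (chromosome 5, 139712428 to 139726188, minus strand), heparin-binding EGF-like growth factor, had 44, 72 and 69 reads in Control and 74, 73 and 77 in ADP-CM. Control replicate 1 was the low library at 2.71 CPM, and the other 5 lay between 3.98 and 4.26. The log2 fold change of 0.15 had an interval of -0.17 to 0.47 (edgeR quasi-likelihood test, adjusted p 0.496). Without Control replicate 1 it was -0.02, so its sign rested on that library.

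BTC, betacellulin, and EREG, epiregulin, were near the limit of detection. BTC had 4, 6 and 4 reads in Control and 4, 7 and 2 in ADP-CM, and EREG had 2, 3 and 5 in Control and 4, 5 and 4 in ADP-CM. Neither difference was detectable at this depth. With no filter on low counts, the log2 fold changes were -0.23 for BTC (SE 0.64) and 0.25 for EREG (SE 0.70), both with an adjusted p of 0.838 in the edgeR quasi-likelihood test.

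AREG, amphiregulin (chromosome 4, 75310853 to 75320722, plus strand), had 20, 11 and 16 reads in Control and 21, 19 and 19 in ADP-CM. These counts stand for very little of the gene. GRCh37, which has the same chromosome sequences as the hg19 build the authors aligned to, holds a copy of the locus 169776 bases downstream, at 75480629 to 75490481. The annotation calls it AREGB, and the count tables have no row of that name. The copies were identical over 99.67% of the 9870 bases of the locus. In the 1642 exonic bases they differed at 1, in the coding part of the first exon. Of the 1348 windows of 50 bases, the length of a read, that lie within AREG exons, 1316 (97.63%) occurred more than once in the genome, and only 32 occurred once. For the other 9 genes this share was at most 3.95%. HTSeq sets reads without a unique place aside, and 20.5 to 20.8% of all entries per library, set-aside ones included, were in that class. Whether a read with several places was entered more than once is not given in the sources used here. The 2 kinds of window are shown as GRCh37 plus-strand sequence, since they decide which reads of AREG could be counted. The shared window is at chr4:75312351-75312400 in AREG and in the same letters at chr4:75482106-75482155 in the copy. The distinct windows are at chr4:75311068-75311117 in AREG and chr4:75480844-75480893 in the copy, and the capital marks the base that differs, G25A counted from 1 at the start of the window with the base of AREG first.
AREG and copy, shared window: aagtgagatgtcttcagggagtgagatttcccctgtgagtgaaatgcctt
AREG, distinct window: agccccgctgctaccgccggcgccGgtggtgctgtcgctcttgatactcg
Copy, distinct window: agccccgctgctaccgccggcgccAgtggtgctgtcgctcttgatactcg

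AREG was at 1.23, 0.651 and 0.936 CPM in Control and 1.16, 1.04 and 1.03 CPM in ADP-CM. The ADP-CM libraries all lay inside the Control range, and the log2 fold change of 0.20 had an interval of -0.40 to 0.80 (edgeR quasi-likelihood test, adjusted p 0.639). Without Control replicate 2 the log2 fold change was -0.01. A change in AREG of up to 73.7% upward lay inside the interval, so the test says little on this ligand.

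**Figure D2:**
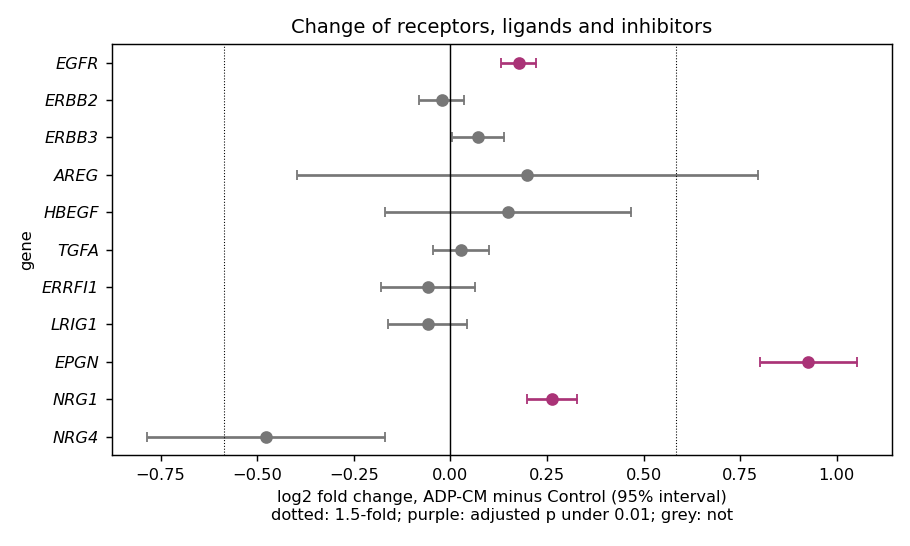
Log2 fold change (ADP-CM minus Control) with 95% intervals for the 8 tested genes of the list and 3 further family ligands, with purple for an adjusted p under 0.01. EGFR, EPGN and NRG1 are purple and above 0, the point of EPGN alone lies beyond the dotted line of 1.5-fold, and the intervals of AREG and HBEGF are wide.

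Neither inhibitor passed the test. ERRFI1 (chromosome 1, 8064464 to 8086369, minus strand), also known as MIG6, binds the kinase domain of EGF receptors and blocks it, and is itself induced by ERK signaling. It was at 27.55, 27.7 and 28.8 CPM in Control and 29.4, 27.05 and 24.4 CPM in ADP-CM. The ADP-CM libraries lay on both sides of the Control libraries, and the log2 fold change was -0.06 with an interval of -0.18 to 0.06 (edgeR quasi-likelihood test, adjusted p 0.497). Without ADP-CM replicate 3 it was 0.01. LRIG1 (chromosome 3, 66429221 to 66551687, minus strand), a membrane protein that promotes the breakdown of the receptors, was at 36.2, 39.1 and 39.9 CPM in Control and 37.4, 37.2 and 36.05 CPM in ADP-CM. The groups overlapped, with a log2 fold change of -0.06 and an interval of -0.16 to 0.04 (edgeR quasi-likelihood test, adjusted p 0.391). LRIG1 shares 37.9% of its exonic bases with SLC25A26 on the opposite strand, and the strand setting of the counting is not given in the sources used here, so its count is uncertain.

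To compare genes with each other, reads were divided by the length of all annotated exons of a gene, as RPKM, the CPM per kilobase. On this scale EGFR led in Control at 21.9 ± 0.603, followed by TGFA at 16.1 ± 0.213, ERBB2 at 14.3 ± 0.304 and ERBB3 at 8.14 ± 0.0306 (SD, n = 3). ERRFI1 stood at 6.71 ± 0.166 and LRIG1 at 5.45 ± 0.278 RPKM. HBEGF at 1.23 ± 0.280, AREG at 0.572 ± 0.177, BTC at 0.105 ± 0.0252 and EREG at 0.0346 ± 0.0151 RPKM closed the order. The ranges of neighbours in this order did not overlap in Control. In ADP-CM the order was the same, and only BTC and EREG overlapped. With the longest transcript as the length, ERBB2 at 29.9 ± 0.637 stood above TGFA at 19.3 ± 0.255 in Control, so the place of TGFA between the receptors rests on the choice of length.
The place of AREG rests on it far more. Per kilobase of start positions of exon windows that occur once, AREG was at 38.5, 20.4 and 29.2 CPM in the Control libraries, and at 36.25, 32.4 and 32.3 in the ADP-CM libraries. With only the listed locus counted, AREG was on that scale first of the 10 genes rather than the eighth in both groups, although its Control range overlapped that of EGFR at 24.2 ± 0.667 (SD, n = 3). Reads across the junction after the first exon can also cover the base that differs, at 18 further start positions. Counting those, the level of AREG in Control was 18.8 ± 5.82 (SD, n = 3). TGFA stood at 17.9 ± 0.236 on the scale of windows that occur once, without junction starts, so the denominators differ. These levels of AREG assume that only reads of the listed locus were counted under that name, which the sources used here do not say. If reads of both loci were counted under that name, the Control libraries stood at 14.7 ± 4.54 and the ADP-CM libraries at 16.8 ± 1.13 (SD, n = 3), the fourth place in both groups with ranges that overlapped those of ERBB2 and TGFA, and with the junction starts 9.40 ± 2.91 and 10.8 ± 0.724. The scale was worked out after the counts had been seen, and it rests on reads over 1 base of each locus.

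**Figure D3:**
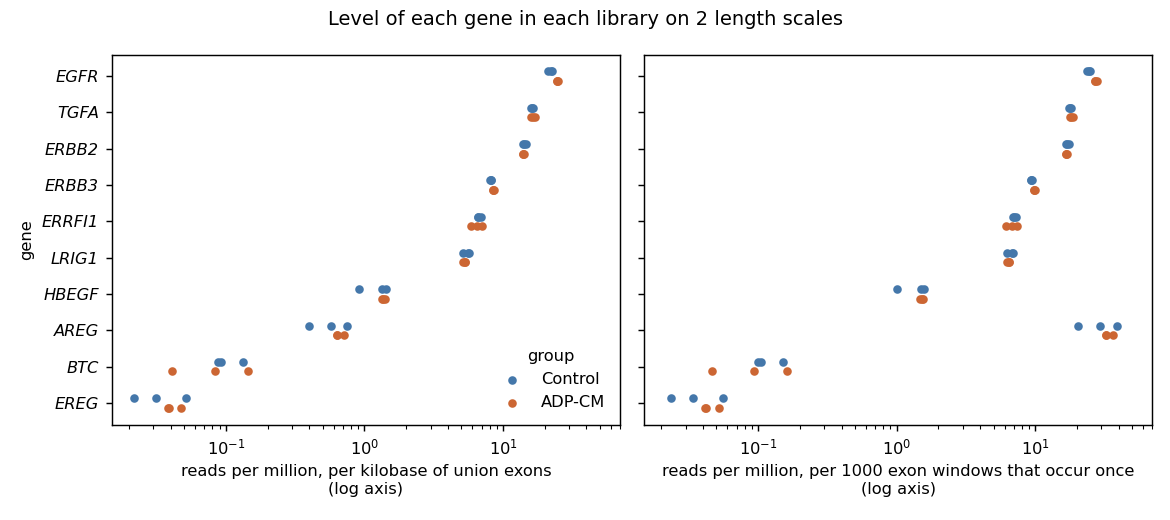
Level of each of the 10 genes in each library on 2 scales, CPM per kilobase of exons (left) and CPM per kilobase of start positions of 50-base exon windows that occur once in the genome (right), both on a log axis. If only the listed locus was counted, AREG moves from between 0.397 and 0.751 on the left to between 20.4 and 38.5 on the right, while the other 9 genes keep their order. Start positions of reads across exon junctions are not included on the right.

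Of the ligand genes, 4 lie within 1 stretch of chromosome 4, in the order EPGN (75174187 to 75182506), EREG (75230862 to 75254466), AREG and BTC (75669969 to 75719733, minus strand). EPGN and EREG are 48355 bases apart, yet their levels were far from each other. EPGN was at 5.25 ± 0.102 RPKM in the Control libraries and at 9.97 ± 0.588 RPKM after ADP-CM (SD, n = 3). EREG was at 0.0346 ± 0.0151 and 0.0415 ± 0.00541 RPKM in the same groups. The 250 bases before the start of each of these neighbours, and of EGFR as the gene of the list that rose, are shown from RefSeq on GRCh38.p14, 5′ to 3′ along the gene, for the letters they share or lack. They lie at chr4:74308220-74308469 for EPGN, chr4:74364895-74365144 for EREG, chr4:74444886-74445135 for AREG, chr4:74794524-74794773 on the minus strand for BTC, and chr7:55018767-55019016 for EGFR, the first of 2 start sites of that gene.
EPGN promoter: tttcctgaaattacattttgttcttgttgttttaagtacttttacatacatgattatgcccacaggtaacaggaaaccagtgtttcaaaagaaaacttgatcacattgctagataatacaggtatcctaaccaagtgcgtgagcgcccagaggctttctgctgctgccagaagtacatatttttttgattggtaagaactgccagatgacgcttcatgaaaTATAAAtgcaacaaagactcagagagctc
EREG promoter: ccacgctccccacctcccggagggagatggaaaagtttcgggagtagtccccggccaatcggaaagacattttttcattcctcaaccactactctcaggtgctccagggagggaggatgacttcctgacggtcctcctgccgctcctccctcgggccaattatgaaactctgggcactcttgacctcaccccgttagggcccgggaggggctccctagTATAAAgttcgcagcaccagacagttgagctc
AREG promoter: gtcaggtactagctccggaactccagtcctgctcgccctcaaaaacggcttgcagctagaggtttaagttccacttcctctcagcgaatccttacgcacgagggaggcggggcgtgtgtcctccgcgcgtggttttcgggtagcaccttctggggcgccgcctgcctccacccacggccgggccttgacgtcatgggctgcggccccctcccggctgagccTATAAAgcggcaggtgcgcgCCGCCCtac
BTC promoter: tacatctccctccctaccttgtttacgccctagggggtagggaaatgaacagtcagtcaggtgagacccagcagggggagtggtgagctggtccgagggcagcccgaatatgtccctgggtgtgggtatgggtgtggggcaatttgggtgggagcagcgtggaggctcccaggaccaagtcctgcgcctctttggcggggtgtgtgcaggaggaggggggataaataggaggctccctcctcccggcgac
EGFR promoter: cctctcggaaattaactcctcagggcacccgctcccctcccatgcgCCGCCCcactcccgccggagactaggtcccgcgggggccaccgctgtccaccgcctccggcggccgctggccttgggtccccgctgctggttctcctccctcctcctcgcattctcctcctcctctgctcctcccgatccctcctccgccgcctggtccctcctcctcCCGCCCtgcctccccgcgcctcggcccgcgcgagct
Capitals mark matches on either strand to 4 sets of letters, with no match overlapping another in the windows shown. They are GGGCGG for a GC box, TGANTCA for AP-1, TTCNNNGAA for STAT factors, and TATAAA for a TATA box. TATAAA was found before EPGN, EREG and AREG, and in 10.7% of all 35116 promoter windows of RefSeq. Among the first start sites of the 9 listed genes with a RefSeq window and of EPGN, 6 of 10 held GGGCGG (42.6% of all windows), 1 held TGANTCA (6.57%), that of ERBB2, and 0 held TTCNNNGAA (6.57%). Other start sites differed: the window of the second EGFR start, at 38.8% GC, held 2 matches to TGANTCA, 2 to TATAAA and 0 to GGGCGG, and that of the fourth LRIG1 start held 2 to TGANTCA. Gene counts do not show which start was used. Among the first start sites, EPGN had the lowest GC content at 38.0%, against 73.6% for the first start of EGFR and a median of 58.0% over all windows. No binding was measured, and a match is only a description of the letters.

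In the rest of the family, EPGN and NRG1 rose. EPGN, which encodes a low-affinity ligand of EGFR, had 286, 293 and 290 reads in Control and 623, 616 and 565 in ADP-CM. Its mean went from 17.3 to 32.9 CPM, a log2 fold change of 0.93 (SE 0.063) with an adjusted p of 1.10e-19 in the edgeR quasi-likelihood test. NRG1, the ligand of ERBB3 and ERBB4, had 1772, 1938 and 1863 reads in Control and 2381, 2349 and 2570 in ADP-CM. Its log2 fold change was 0.26 (SE 0.033) with an adjusted p of 1.05e-09 in the same edgeR quasi-likelihood test, and 9.5% of its exonic bases lie in another gene on its strand. For both genes all 3 ADP-CM libraries were above all Control libraries. NRG4, another ligand of ERBB4, had 81, 91 and 83 reads in Control and 55, 58 and 87 in ADP-CM. Its log2 fold change of -0.48 (SE 0.15) just missed the threshold (edgeR quasi-likelihood test, adjusted p 0.0108, range over the alternatives 0.000373 to 0.0907), and without ADP-CM replicate 3, the high library of its group, it was -0.71 and passed. NRG4 also shares 38.2% of its exonic bases with FBXO22 on the opposite strand. The genes EGF, NRG2 and ERBB4 had at most 9 reads in any library, and NRG3 had 0 in all 6. ERBB4, the remaining receptor, had 8, 4 and 9 reads in Control and 3, 7 and 9 in ADP-CM, so that of the 4 receptors EGFR, ERBB2 and ERBB3 were the ones with enough reads to test.

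Beyond the receptors and ligands, 4 lists named 63 genes of the pathway, all of them tested. At an adjusted p under 0.01 in the edgeR quasi-likelihood test, 16 of the 63 rose and 6 fell, against 26.5% of all tested genes in either direction. Their median log2 fold change was 0.04. With the remaining family genes just described, EPGN and NRG1 among them, 18 of 66 rose and 6 fell.
Of the 8 genes of ligand shedding 2 rose and 1 fell. ADAM17 and ADAM10, the main proteases that free EGFR ligands, did not pass (log2 fold changes 0.06 and -0.06). RHBDF2, which brings ADAM17 to the cell surface, rose with a log2 fold change of 0.27, and TIMP3, an inhibitor of ADAM17, rose with 0.33. ADAM15 fell by 0.18 on the log2 scale.
Of the 15 genes of receptor turnover 5 rose and 0 fell (median log2 fold change 0.05). LRIG3, a relative of LRIG1, rose with 0.32, from 29.4 to 36.6 CPM. CBL, the ubiquitin ligase that marks activated EGFR for breakdown, rose with 0.25, from 89.3 to 106.3 CPM. HGS, which sorts receptors toward the lysosome, rose with 0.13, a call that was lost under 4 of 12 alternatives. Of its exonic bases 25.9% lie opposite other genes, so its count is uncertain too.
Of the 23 adaptors and kinases 20 did not pass, 2 rose and 1 fell. SHC1, an adaptor that binds activated receptors, rose with 0.32, from 157.9 to 197.1 CPM, and PLCG1, a phospholipase that the receptors activate, rose with 0.14, a call lost when ADP-CM replicate 1 was left out (adjusted p 0.0150, edgeR quasi-likelihood test). Of the exonic bases of SHC1, 7.7% lie in another gene on its strand and 7.5% opposite another gene. For PLCG1, 6.4% lie opposite other genes. HRAS fell by 0.14, and that call was lost under 4 of 12 alternatives.
Of the 17 ERK-responsive genes 7 rose and 4 fell, where 26.5% of all tested genes passed in either direction. Their median log2 fold change was 0.15. IER3, an early response gene, rose from 70.1 to 109.6 CPM (log2 fold change 0.64, SE 0.036, adjusted p 1.50e-23, edgeR quasi-likelihood test), although 38.9% of its exonic bases lie opposite other genes. The transcription factor ETV5 rose with 0.43 and PHLDA1 with 0.20, and 9.4% of the exonic bases of PHLDA1 lie opposite another gene. In the other direction EGR1, an immediate early factor, fell from 30, 52 and 45 reads to 19, 20 and 27, a log2 fold change of -1.07 (SE 0.23, adjusted p 0.000176, edgeR quasi-likelihood test). The receptor kinase EPHA2 fell by 0.13 and the ERK phosphatase DUSP5 by 0.14, a call lost under 3 of 12 alternatives for DUSP5. The ERK-responsive genes thus changed in both directions, though not evenly, with 13 of the 17 log2 fold changes above 0 and 4 below. None of these genes reports on protein or phosphorylation.

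**Figure D4:**
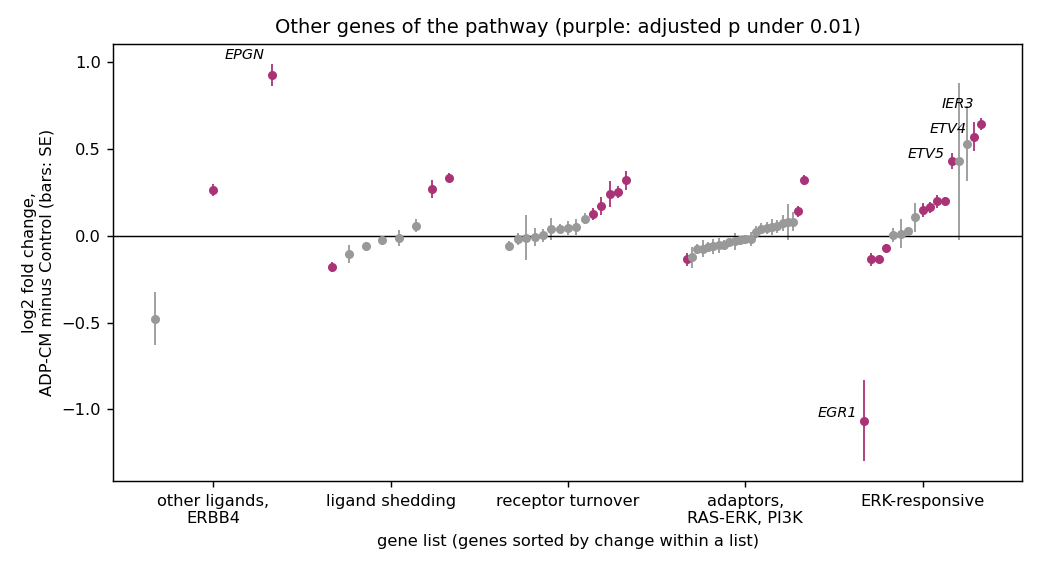
Log2 fold change (ADP-CM minus Control, bars for the standard error) of the tested genes of 5 pathway lists, sorted within each list, with purple for an adjusted p under 0.01. EPGN at 0.93 and EGR1 at -1.07 lie farthest from 0, and 20 of the 23 adaptors and kinases are grey.

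The libraries held 16262614 to 18363033 reads on genes. Reads that HTSeq assigned to no annotated feature made up 10.2 to 10.3% of all entries in Control, set-aside ones included. In ADP-CM they made up 11.5 to 11.6%, and their part in the results was not tested. The counts do not show whether these reads lay between genes or within them. Of 9 epithelial and endometrial markers 8 were tested, and their summed level was 4145 to 4218 CPM in Control and 3491 to 3539 CPM in ADP-CM. Of these 1 rose, PAX8, and 5 fell, among them KRT19 with a log2 fold change of -0.85. The 8 adipocyte markers summed to 9.94 to 10.4 CPM in Control and 9.98 to 12.0 CPM in ADP-CM, nearly all of it CFD, and ADIPOQ and LEP had 0 reads in all 6 libraries. The 4 leukocyte markers summed to at most 0.331 CPM. Of the 6 stromal markers, which summed to 61.5 to 68.4 CPM in Control and 78.3 to 79.2 in ADP-CM, COL1A1 rose (log2 fold change 0.30), while DCN and PDGFRA had at most 2 reads. The 3 endothelial markers summed to 60.7 to 66.4 CPM in Control and 54.5 to 61.6 in ADP-CM, nearly all of it CDH5, and PECAM1 had at most 1 read. The part of the fall in epithelial markers in the EGFR result was not tested.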

How the data were processed

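RL95-2 libraries (3 Control, 3 ADP-CM) were prepared with a stranded kit, and reads were 50 bases long from 1 end. The authors aligned them to hg19 with TopHat2 and deposited raw counts per RefSeq gene from HTSeq; versions and the strand setting are not given in the sources used here. The submitters' processing notes also name bcl2fastq and SAMtools. Summary lines that name no gene were left out of library sizes and tests. They held 10.2 to 11.6% (no feature), 0.709 to 0.721% (ambiguous) and 20.5 to 20.8% (not unique) of all entries of a library.

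The groups were compared in R 4.3.3 with edgeR 4.0.16: TMM, filterByExpr, quasi-likelihood test, Benjamini-Hochberg over 12663 genes, called at an adjusted p under 0.01, with a fold change of 1.5 counted apart. CPM and RPKM were computed from the counts, for RPKM with exon lengths of GENCODE release 44 on GRCh37. DESeq2 1.42.0 was an alternative, and both tests were tested on simulated data. Windows of 50 bases within exons were searched in both strands of GRCh37, and the AREG loci were aligned with edlib. No 2 libraries of a group agreed within sampling noise, with a chi-square per degree of freedom of 1.23 to 2.03. The common coefficient of variation that edgeR estimated beyond that noise was only 1.67%. Intervals are at 95%. Promoters came from RefSeq on GRCh38.p14, matched by symbol for 9 of 10 genes, and were not joined to GRCh37 positions.

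Alternatives were other size factors, DESeq2, other filters, other limits, the replicate number as a term, each library left out and other lengths. The genes, lists and tests were chosen with earlier results of these data known. Named genes were all 10, the remaining family ligands and ERBB4, up to 3 raised and 3 lowered genes per pathway list by smallest p, and the 3 profiles closest to EGFR. ADAM17, ADAM10 and the markers were named outside that rule, after their values were seen.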

Additional observations from a re-analysis of the deposited data

How the results depend on the processing

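Of 96 values of the 8 tested genes under 12 alternatives each, 93 kept their direction and side of the threshold and 3 reversed sign, all in genes that had not passed the test: AREG without Control replicate 2, HBEGF without Control replicate 1 and ERRFI1 without ADP-CM replicate 3. With 1 library left out, their log2 fold changes ran from -0.00696 to 0.434 for AREG, from -0.0228 to 0.2686 for HBEGF and from -0.1245 to 0.00998 for ERRFI1. With 1 library left out, the number of listed genes raised was 1 and the number lowered 0 each time, and pathway genes raised numbered 14 to 16 and lowered 4 to 6. A fold change of 1.5 as a further limit left 0 listed genes raised, 2 pathway genes raised (EPGN and IER3) and 1 lowered (EGR1). DESeq2 left 3 pathway genes lowered in place of 6 and 14 raised in place of 18, and its calls over all genes numbered 1978 (16.2% of 12241 with an adjusted p) in place of 3357 (26.5% of 12663); the cause was not tested. Of 216 values of the 18 other named genes 200 kept their call, 12 lost it and 4, all of NRG4, gained it. In the order of levels, 2 of 10 genes kept their place on the scale of windows that occur once, an alternative chosen after seeing the data. The reason was that AREG moved to the top there, with its junction starts left out. With the starts of both AREG loci as the length of AREG, also chosen after seeing the data, 5 of 10 genes kept their place. That scale takes both loci to give RNA. Same-numbered libraries of the groups deviated together by correlations of 0.073, 0.014 and 0.097. Those of differently numbered libraries ran from -0.093 to 0.026, below the values for numbers 1 and 3. All were under 0.1, and the numbers were not taken as pairs in the main fit. With the replicate block, 1 listed gene was raised and 0 were lowered, pathway genes raised and lowered numbered 19 and 7, and calls over all genes went from 3357 to 3502. Depth limits EREG, BTC, EGF, NRG2 and ERBB4, and for AREG the second locus limits the counts.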
